A study of Homo sapiens with 8 samples.

Results

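The genes described here were 10 targets and feedback regulators of the Wnt/β-catenin pathway: LGR5, SOX4, AXIN2, LEF1, TCF7, NKD1, RNF43, ZNRF3, SP5 and DKK1. They were chosen by name and found through their Entrez gene IDs, and they are 10 of the 27936 genes in the count tables. RNA-seq had been done on HEK293, a transformed line first grown from embryonic human kidney, with 8 libraries in 4 groups of 2. The 4 TIP60 knock-out (KO) libraries carried the genotype label HEKg1/C9 and the 4 control libraries the label HEKg1, and each arm had 2 libraries labelled sgRNA1 and 2 labelled sgRNA2. KAT5 is the gene of TIP60, an enzyme that acetylates lysines on histones and other proteins. Expression of the guide RNAs had been induced in all 8 cultures with doxycycline at 1 µg/ml for 3 days, so the controls received the drug too, and the cells were grown with 2 mM GlutaMAX. The labels explain neither genotype name, nor what the guides of the control cells target, nor whether a line is a single clone. They also do not say whether replicates came from separate cultures, so the p-values measure only the spread between these libraries.

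In canonical Wnt signalling, a secreted Wnt ligand binds a Frizzled receptor with the co-receptors LRP5 or LRP6, the destruction complex around AXIN, APC and GSK3 is held back, and β-catenin accumulates and enters the nucleus. There it binds TCF/LEF factors on DNA and turns on target genes, several of which act back on the pathway. AXIN2 rebuilds the destruction complex, NKD1 binds Dishevelled, DKK1 is secreted and blocks LRP5 and LRP6, and RNF43 and ZNRF3 are membrane ubiquitin ligases that clear Frizzled from the cell surface. LGR5 is a receptor for R-spondins, which remove those ligases and so raise Wnt sensitivity.

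TCF/LEF factors recognise a short DNA word, and the promoters that hold it are shown here because 1 lies at the gene with the largest change, 1 at the least expressed gene and 1 at a gene that was lower in KO cells. Promoter sequences were taken from RefSeq on GRCh38.p14, which listed 8 promoters for 6 of the 10 genes. LGR5, AXIN2, NKD1 and ZNRF3 were not matched. The word CTTTGAA was searched on both strands in the 250 bases before each start. Its variants were searched too: CTTTGAT, with a final T, then CTTTGTA, with a T before the last base, and lastly CTTTGTT, with both. Capitals below mark each match. A reverse-strand match reads as its complement, so TTCAAAG stands for CTTTGAA and AACAAAG for CTTTGTT.
DKK1, chr10:52314031-52314280, plus strand: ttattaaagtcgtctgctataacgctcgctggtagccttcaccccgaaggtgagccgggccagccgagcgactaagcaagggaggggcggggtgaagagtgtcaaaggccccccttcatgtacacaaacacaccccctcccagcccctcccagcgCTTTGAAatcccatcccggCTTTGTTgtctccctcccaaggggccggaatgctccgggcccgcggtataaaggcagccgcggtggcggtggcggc
SP5, chr2:170715087-170715336, plus strand: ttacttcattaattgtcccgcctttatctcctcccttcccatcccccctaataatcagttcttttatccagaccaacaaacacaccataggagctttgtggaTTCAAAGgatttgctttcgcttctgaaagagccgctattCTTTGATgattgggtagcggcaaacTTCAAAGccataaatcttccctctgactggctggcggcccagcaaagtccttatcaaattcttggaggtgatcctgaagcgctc
TCF7, chr5:134123368-134123617, plus strand, the second listed promoter: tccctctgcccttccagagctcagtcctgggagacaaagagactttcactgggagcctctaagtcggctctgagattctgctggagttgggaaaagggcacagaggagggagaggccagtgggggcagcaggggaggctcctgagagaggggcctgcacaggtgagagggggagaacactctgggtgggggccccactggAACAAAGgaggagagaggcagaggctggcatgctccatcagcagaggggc
The DKK1 window held 2 matches, from -95 to -89 and from -76 to -70 relative to the start. The SP5 window held 3 matches, from -148 to -142, -109 to -103 and -84 to -78. The TCF7 window held 1 match, from -50 to -44, and the other 5 promoters, of SOX4, LEF1, RNF43 and the first of TCF7, held none. A match was found in 11.96% of the 35116 promoters in the table and in 8.22% of the 16707 promoters of tested genes. These matches describe letters in a window and show no binding.

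The libraries held 13325415 to 18841774 gene counts in the KO arm and 3723992 to 14601552 in the control arm, and the smallest, control sgRNA1 replicate 2, held 29.8% of the next control library. That library also stood apart on the second principal component of log2 CPM, which carried 10.9% of the variance against 73.6% for the first, the axis that separated KO from control. KAT5 averaged 18.8 ± 0.964 CPM in KO and 46.8 ± 2.12 CPM in control libraries (SD, n = 4 each), 40.1% of the control level. In GENCODE v29, exons of RNASEH2C on the other strand overlap 38.6% of the exonic bases of KAT5. RNASEH2C was lower too, at 59.3 CPM in KO and 74.9 CPM in control libraries. Whether shared reads enter the KAT5 counts was not tested. CPM, which relate counts to the library total, are scaled by TMM, a normalisation that assumes most genes do not change. Of 14455 tested genes, 31.8% were called higher and 31.2% lower in KO cells at an adjusted p under 0.05 (edgeR's quasi-likelihood test, Benjamini-Hochberg over all tested genes), so a call alone does not set a gene apart here. More genes had at least 1 count in KO libraries, 18513 to 19037, than in control libraries, 15581 to 17413. Of 9 markers fixed for HEK293, 8 were tested, 5 rose and 1 fell, and their summed level was 14250 to 15480 CPM in KO and 9328 to 11100 CPM in control libraries. The neurofilament genes NEFM and NEFL made up most of it, while PAX2 and LHX1 averaged under 1 CPM in both arms.

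Of the 10 Wnt genes, 4 were higher and 4 lower in KO than in control cells, and 2 did not pass the test. LGR5, SOX4, DKK1 and NKD1 rose, LEF1, TCF7, RNF43 and ZNRF3 fell, and AXIN2 and SP5 were not called. The shares, 4 of 10 each way, lie near the 31.8% and 31.2% of all tested genes. Changes of at least 2-fold were called for LGR5 and DKK1 alone among the 10, both higher, against 8.38% of tested genes that rose that far and 1.11% that fell that far. The median log2 fold change of the 10 was 0.30, against 0.01 over all tested genes. Bulk RNA cannot tell fewer cells of a kind from less RNA per cell. All 10 genes passed the filter on low counts, DKK1 through KO libraries alone, since no control library reached the 0.716 CPM the filter asks for, and SP5 through 1 KO and 1 control library. A call of DKK1 as higher was thus favoured by the filter. The counts of 4 higher and 4 lower were the same without control sgRNA1 replicate 2.

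**Figure D1:**
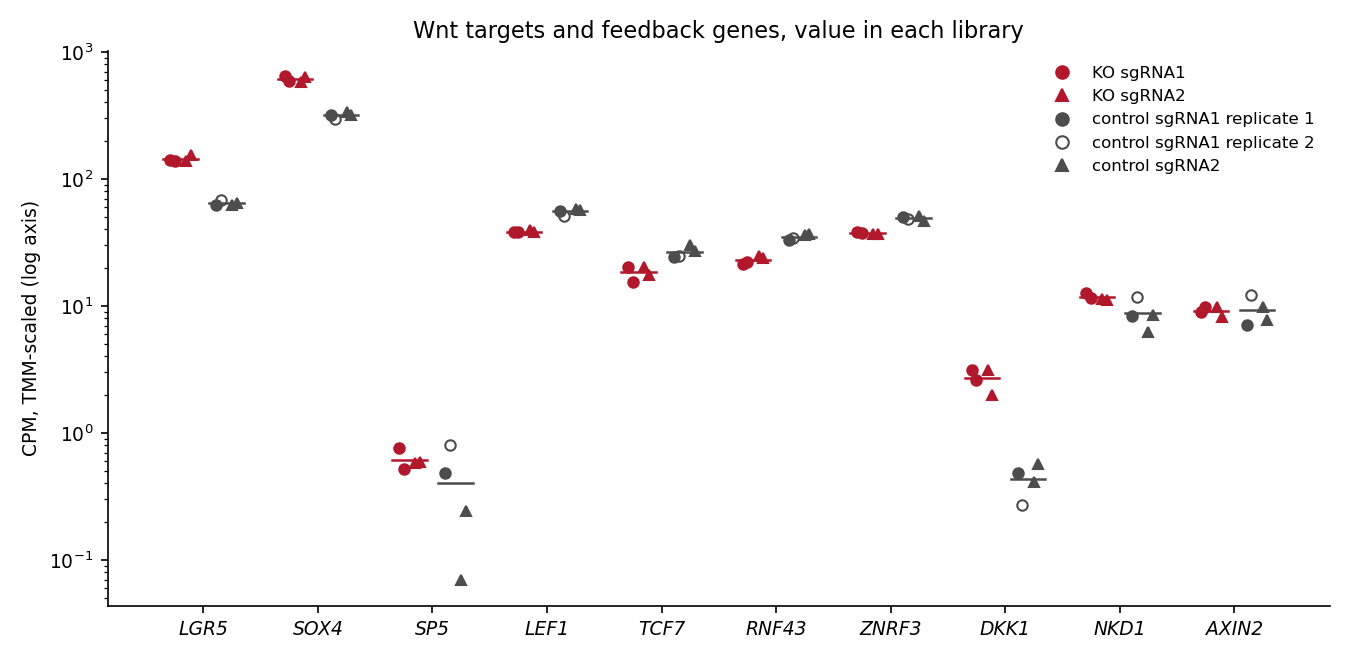
CPM on a log axis for each of the 10 genes in each library, KO in red to the left of control in grey, with circles for sgRNA1, triangles for sgRNA2 and lines at the means of 4 libraries. The open circle is control sgRNA1 replicate 2, the smallest library, which is the highest control for LGR5, SP5, NKD1 and AXIN2. KO and control points do not overlap for 7 genes. Of all tested genes, 27.3% had every KO library above every control library and 25.6% had every KO library below.

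LGR5, the R-spondin receptor and a marker of intestinal stem cells, lies at chr12:71439129-71586310. It stood at 141, 139, 138 and 155 CPM in the KO libraries, against 62.3, 67.8, 62.3 and 64.8 CPM in the control libraries. Every KO library was above every control library, and the means were 143.5 ± 7.88 CPM in KO and 64.3 ± 2.66 CPM in control cells (SD, n = 4 each). The log2 fold change was 1.17 ± 0.051 (SE, adjusted p = 1.03e-13, edgeR). It was 1.13 ± 0.076 within sgRNA1 and 1.21 ± 0.070 within sgRNA2, so the rise was called in cells of both guide numbers. It was the smallest p among the 10 genes. The 3 tested genes outside the set whose centred log2 CPM lay nearest to it over the 8 libraries were SPEN, REEP6 and ITPR1, at distances of 0.217, 0.219 and 0.228 log2 units, and SOX4 was the 79th nearest gene at 0.40. Those distances follow the KO and control split, which the libraries share.

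SOX4, a transcription factor of the SoxC group expressed in many progenitor cells, lies at chr6:21593751-21598619. KO libraries held 646, 592, 574 and 633 CPM, against 320.1, 297, 338 and 318 CPM in control libraries. The arms did not overlap, and SOX4 nearly reached a doubling, with a log2 fold change of 0.94 ± 0.051 (adjusted p = 3.07e-12, edgeR). Within sgRNA1 it was 1.00 ± 0.073 and within sgRNA2 0.88 ± 0.071. SOX4 was the most abundant of the 10 genes per length in both arms, at 125 ± 6.91 RPKM in KO and 65.2 ± 3.48 RPKM in control cells (SD, n = 4 each). RPKM are the same values per kilobase of the deposited gene length. Levels of different genes set side by side in RPKM depend on that length.

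SP5, a zinc finger repressor of the Sp family that is a direct Wnt target in many cell types, lies at chr2:170715337-170718078 behind the promoter with 3 matches. It was the lowest of the 10, with 13, 7, 11 and 9 counts in the KO libraries and 6, 3, 1 and 3 counts in the control libraries. These are 0.759, 0.520, 0.575 and 0.596 CPM in KO and 0.484, 0.808, 0.0690 and 0.244 CPM in control cells. The arms overlapped because control sgRNA1 replicate 2, with 3 counts, was the highest of all 8, and its exact 95% Poisson interval ran from 0.167 to 2.36 CPM. The CPM ratio of the summed counts was 2.04, with an exact 95% interval of 1.07 to 4.15 that covers counting error only. In the fit, the log2 fold change of 0.94 ± 0.470 did not pass the test (adjusted p = 0.0861, edgeR). Without each library in turn it ran from 0.56, without control sgRNA2 replicate 1, to 1.23, without control sgRNA1 replicate 1, and no such value was called.

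SP5 was also the gene for which the guide numbers looked least alike. Its change was 0.21 ± 0.586 within sgRNA1 (adjusted p = 0.792, edgeR) and 1.90 ± 0.688 within sgRNA2, where it was called (adjusted p = 0.0276, edgeR). The test of that difference itself, 1.69 ± 0.939, had an unadjusted p of 0.0885 in edgeR's quasi-likelihood test and was not called. It was 1.02 without control sgRNA2 replicate 1 and 2.71 without control sgRNA2 replicate 2. The control cells of the 2 guide numbers differed by -1.85 ± 0.811 (sgRNA2 over sgRNA1, unadjusted p = 0.0351 and adjusted p = 0.589, edgeR), which was -1.17 without control sgRNA2 replicate 1 and -2.87 without control sgRNA2 replicate 2. The sgRNA2 call was lost with DESeq2 (adjusted p = 0.149), without KO sgRNA2 replicate 1 (adjusted p = 0.0968, edgeR), without KO sgRNA2 replicate 2 (adjusted p = 0.0823, edgeR) and without control sgRNA2 replicate 1, which held 1 count (log2 fold change 1.23, adjusted p = 0.283, edgeR). It was kept without control sgRNA2 replicate 2 (log2 fold change 2.91, adjusted p = 0.0402, edgeR).

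The nuclear factors among the 10, LEF1 and TCF7, were both lower in KO cells. LEF1, which lies at chr4:108047548-108168932 on the minus strand and encodes the founding LEF protein, had 37.8, 38.1, 39.7 and 38.2 CPM in the KO libraries, against 56.1, 51.4, 58.1 and 56.8 CPM in the control libraries. All KO values sat below all control values, and the spread within the KO arm was small beside the gap. The log2 fold change was -0.54 ± 0.052 (adjusted p = 1.35e-08, edgeR), with -0.52 ± 0.079 within sgRNA1 and -0.56 ± 0.071 within sgRNA2. Its antisense neighbour LEF1-AS1 overlaps 5.2% of its exonic bases and averaged 0.404 CPM in KO and 0.576 CPM in control cells, too low to be tested.

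TCF7, which encodes TCF1, lies at chr5:134108218-134148210. KO libraries held 20.1, 15.4, 20.4 and 17.4 CPM, against 24.3, 24.8, 30.3 and 26.9 CPM in control libraries. The arms did not overlap although the spread was wider than for LEF1. The log2 fold change was -0.53 ± 0.087 (adjusted p = 1.93e-05, edgeR), with -0.45 ± 0.135 within sgRNA1 and -0.60 ± 0.116 within sgRNA2. The call within sgRNA1 was lost without KO sgRNA1 replicate 2, the lowest library, where the value became -0.29 (adjusted p = 0.117, edgeR), and without control sgRNA1 replicate 1 (-0.47, adjusted p = 0.0869, edgeR). SKP1 overlaps 2.1% of the exonic bases of TCF7 on the other strand and itself rose to 397 CPM in KO, against 255.5 CPM in control cells.

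In RPKM, LEF1 and TCF7L2 stood highest of the 4 TCF/LEF genes. The deposited length is 11685 bases for TCF7 and 4128 for LEF1. The ranks and shares below depend on these lengths. TCF7L2 averaged 6.29 ± 0.329 RPKM in KO and 6.25 ± 0.220 RPKM in control cells and did not pass the test (log2 fold change 0.02 ± 0.060, adjusted p = 0.787, edgeR). TCF7L1, which acts mostly as a repressor, fell by 0.86 ± 0.147 on the log2 scale (adjusted p = 3.57e-05, edgeR). The 4 genes summed to 18.5 ± 0.433 RPKM in KO and 24.3 ± 1.26 RPKM in control cells (SD, n = 4 each). LEF1 made up 49.6 to 51.5% of that sum in KO libraries and 54.5 to 56.4% in control libraries, and TCF7L2 made up 33.0 to 35.9% in KO and 24.3 to 28.2% in control libraries. The ranges of both shares did not overlap between arms, and the family in KO cells held less RNA with a larger share from TCF7L2.

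RNF43 and ZNRF3, the paired ligases that clear Frizzled from the cell surface, were both lower in KO cells. RNF43, at chr17:58352500-58417534 on the minus strand, had 21.5, 22.3, 24.8 and 23.7 CPM in the KO libraries, against 33.2, 34.2, 36.1 and 36.7 CPM in the control libraries. The arms were well apart, and the log2 fold change was -0.60 ± 0.061 (adjusted p = 3.80e-08, edgeR), the largest fall among the 10. Changes within sgRNA1 and sgRNA2 were -0.61 ± 0.094 and -0.58 ± 0.082. RNF43 is uncertain as a gene-level count: in GENCODE v29, 59.5% of its exonic bases overlap the same-strand neighbours AC004687.2 and SUPT4H1. Another 20.3% overlap TSPOAP1-AS1 on the other strand. SUPT4H1 itself rose, with 89.9 CPM in KO and 73.4 CPM in control cells (log2 fold change 0.30, adjusted p = 2.27e-05, edgeR).

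ZNRF3, at chr22:28883572-29057488, has no such overlap. It had 38.2, 37.3, 36.9 and 36.7 CPM in the KO libraries, against 50.3, 47.9, 51.0 and 46.6 CPM in the control libraries. No KO library reached any control library, and the log2 fold change was -0.40 ± 0.054 (adjusted p = 1.71e-06, edgeR). It was -0.39 ± 0.082 within sgRNA1 and -0.41 ± 0.075 within sgRNA2, and the sgRNA2 call was lost when all libraries were thinned to the smallest (-0.16, adjusted p = 0.352, edgeR). Thinning was a single random draw, so thinned values carry the noise of that draw.

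LGR5 thus rose while both ligases it acts on fell. The ratio of LGR5 to the sum of RNF43 and ZNRF3, all in RPKM, was 3.54, 3.48, 3.31 and 3.81 in the KO libraries, against 1.10, 1.21, 1.05 and 1.14 in the control libraries. The lowest KO ratio was well above the highest control ratio. The ratio was formed from genes already described and adds no test.

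**Figure D2:**
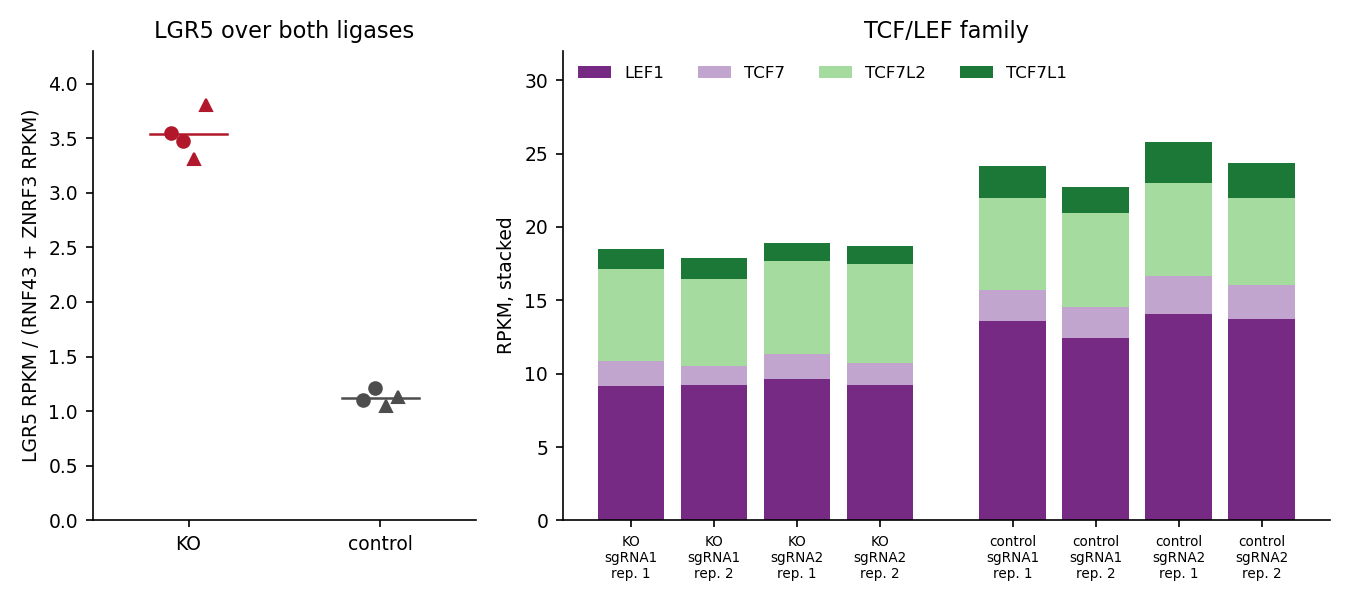
Left, the ratio of LGR5 RPKM to the summed RPKM of RNF43 and ZNRF3 in each library (circles sgRNA1, triangles sgRNA2, lines at the means), 3.31 to 3.81 in KO and 1.05 to 1.21 in control. Right, stacked RPKM of LEF1, TCF7, TCF7L2 and TCF7L1 in each library, where the KO bars on the left are lower and hold a larger TCF7L2 share.

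DKK1, the secreted blocker of LRP5 and LRP6, lies at chr10:52314281-52317657 behind the promoter with 2 matches, and it had the largest fold change of the 10. The KO libraries held 54, 35, 60 and 30 counts, against 6, 1, 6 and 7 counts in the control libraries. These are 3.15, 2.60, 3.13 and 1.99 CPM in KO and 0.484, 0.269, 0.414 and 0.569 CPM in control cells. The lowest KO library was above the highest control library, although DKK1 stayed a weakly expressed gene, at 1.51 RPKM in KO and 0.241 RPKM in control cells. DKK1 passed the low-count filter through KO libraries alone, so that a difference was favoured by the filter. The log2 fold change was 2.52 ± 0.300 (adjusted p = 3.31e-07, edgeR), and the CPM ratio of the summed counts was 5.92, with an exact 95% interval of 3.72 to 9.93 for counting error. Within sgRNA1 it was 2.71 ± 0.477 and within sgRNA2 2.40 ± 0.394. With all libraries thinned to 3723992 counts the overall change was 2.55 (adjusted p = 0.000105, edgeR), the sgRNA1 value was 3.47 (adjusted p = 0.000416, edgeR), and the sgRNA2 value, 1.63, was no longer called (adjusted p = 0.085, edgeR).

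NKD1, which binds Dishevelled and dampens Wnt signalling, lies at chr16:50548396-50649249. It had 12.6, 11.6, 11.3 and 11.1 CPM in the KO libraries, against 8.32, 11.9, 6.28 and 8.46 CPM in the control libraries. The arms overlapped through control sgRNA1 replicate 2, whose 44 counts give an exact 95% Poisson interval of 8.61 to 15.9 CPM, and the other 3 controls lay below every KO library. The log2 fold change was 0.51 ± 0.119 (adjusted p = 0.000805, edgeR), and 0.58 without that library (adjusted p = 0.0002, edgeR). The call was lost in the single draw that thinned libraries to the smallest (0.26, adjusted p = 0.277, edgeR). An exact permutation test of the 4 against 4 log values, two-sided, gave p = 0.114. Within sgRNA1 the value of 0.38 ± 0.175 was not called (adjusted p = 0.0813, edgeR), and it was 0.003 after thinning (adjusted p = 0.994, edgeR) and 0.03 without control sgRNA1 replicate 1 (adjusted p = 0.949, edgeR). It was called without control sgRNA1 replicate 2 (0.53, adjusted p = 0.0204, edgeR). Within sgRNA2 the value of 0.62 ± 0.160 was called (adjusted p = 0.00342, edgeR), though not without control sgRNA2 replicate 1, the lowest control (0.41, adjusted p = 0.0997, edgeR), nor after thinning (0.54, adjusted p = 0.137, edgeR).

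AXIN2, the scaffold whose RNA is the usual readout of β-catenin activity, lies at chr17:65528563-65561648 on the minus strand. It had 8.87, 9.72, 9.88 and 8.21 CPM in the KO libraries, against 7.11, 12.1, 9.86 and 7.73 CPM in the control libraries. The arms overlapped fully, with the KO values inside the control range. Means were 9.17 ± 0.780 CPM in KO and 9.20 ± 2.27 CPM in control cells (SD, n = 4 each), and the log2 fold change was 0.08 ± 0.132 (adjusted p = 0.625, edgeR). Neither guide number gave a call, with 0.13 ± 0.208 within sgRNA1 and 0.04 ± 0.178 within sgRNA2. The highest control was again control sgRNA1 replicate 2, whose 45 counts give an exact 95% Poisson interval of 8.84 to 16.2 CPM, and without that library the value was 0.15 (adjusted p = 0.307, edgeR). No difference in AXIN2 was thus called, and whether depth hid one was not tested. The CPM ratio of its summed counts had an exact 95% interval of 0.932 to 1.213, for counting error only. The sign of its log2 fold change turned without control sgRNA1 replicate 1 (-0.06) or control sgRNA2 replicate 2 (-0.003). Of its exonic bases, 25.2% overlap a same-strand neighbour in GENCODE v29.

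**Figure D3:**
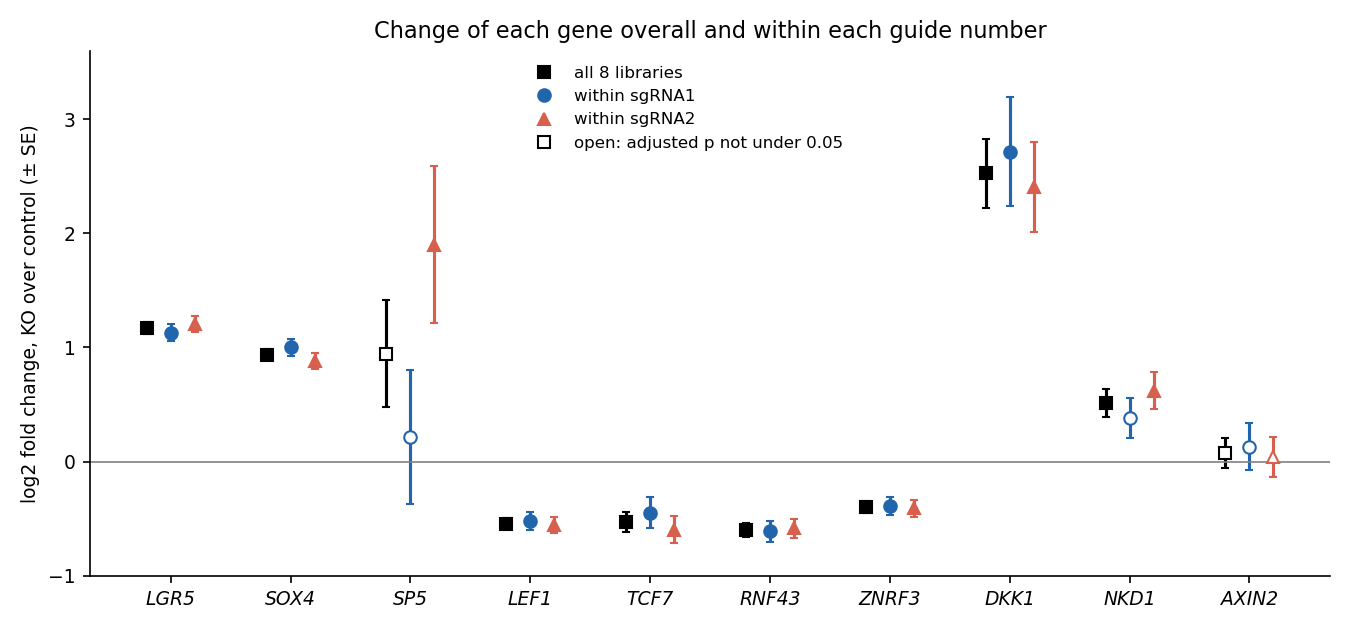
Log2 fold change of KO over control for each gene, with bars of ± 1 SE, in the fit of all 8 libraries (squares), within sgRNA1 (circles) and within sgRNA2 (triangles), filled where the adjusted p was under 0.05. The 3 estimates lie close together for LGR5, SOX4, LEF1, RNF43 and ZNRF3 and furthest apart for SP5, at 0.21 within sgRNA1 and 1.90 within sgRNA2.

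By arm, 7 of the 10 genes did not overlap: LGR5, SOX4 and DKK1 had every KO library above every control library, and LEF1, TCF7, RNF43 and ZNRF3 had every KO library below. Over all tested genes, 27.3% were above in every library and 25.6% below. Each of the 7 had an exact permutation p of 0.0286, two-sided, the smallest that 4 against 4 libraries allow. Any gene whose arms do not overlap has that p, so it adds nothing to the lack of overlap. Within sgRNA1, 3 genes were called higher and 4 lower, against 24.3% and 23.3% of tested genes, and within sgRNA2, 5 were called higher and 4 lower, against 25.7% and 25.4%. The member medians were 0.17 within sgRNA1 and 0.33 within sgRNA2. The test of a difference between the changes within sgRNA2 and within sgRNA1 called none of the 10 genes and 0 of 14455 genes (0%) by edgeR, with 638 genes at an unadjusted p under 0.05, and 0 by DESeq2, with 192 such genes. Between the control cells of the guide numbers, edgeR called 1 gene higher in sgRNA2 (0.00692%) and 3 lower (0.0208%), and none was among the 10.

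Per length, the order of the genes in KO cells was SOX4, LGR5, LEF1, ZNRF3, RNF43, AXIN2, TCF7, DKK1, NKD1 and SP5. In control cells it was SOX4, LEF1, LGR5, ZNRF3, RNF43, TCF7, AXIN2, NKD1, DKK1 and SP5. LGR5 stood above LEF1 in every KO library, with means of 28.4 RPKM for LGR5 and 9.31 RPKM for LEF1 in KO cells, against 12.7 RPKM for LGR5 and 13.5 RPKM for LEF1 in control cells, where their ranges overlapped. The ranges of neighbours over the 4 KO libraries overlapped for AXIN2 with TCF7, TCF7 with DKK1 and DKK1 with NKD1, so that their order in KO cells is not settled. In the control libraries the overlapping neighbours were LEF1 with LGR5, ZNRF3 with RNF43, TCF7 with AXIN2 and DKK1 with SP5, so that their order is not settled either. The lowest and highest means were 0.198 RPKM for SP5 and 125 RPKM for SOX4 in KO cells, and 0.130 RPKM for SP5 and 65.2 RPKM for SOX4 in control cells.

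**Figure D4:**
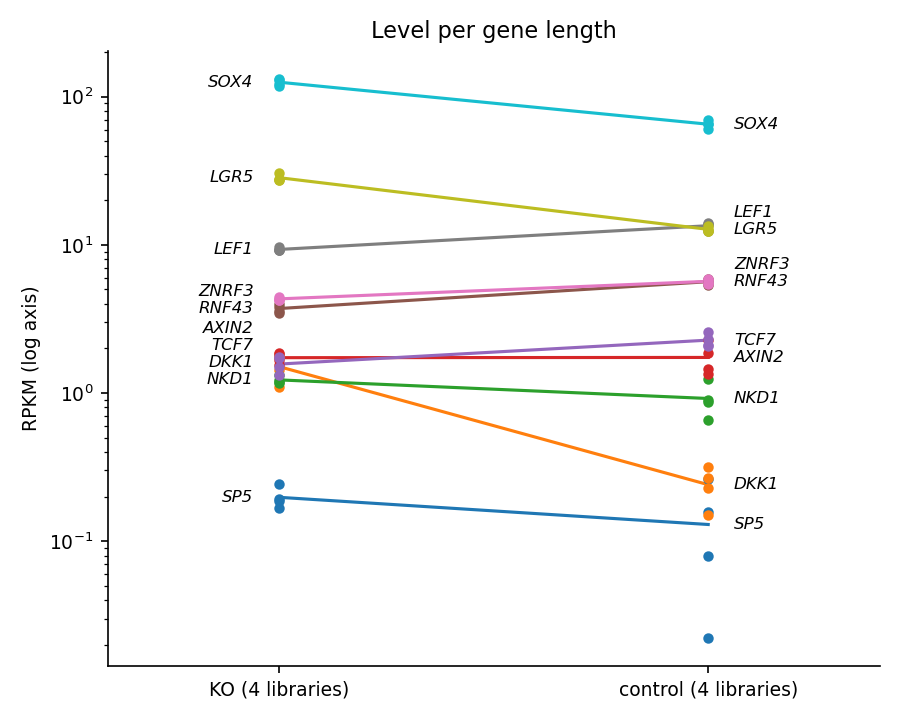
RPKM on a log axis for each of the 10 genes, with points for the 4 KO libraries on the left and the 4 control libraries on the right and lines joining the means. The LGR5 line (28.4 RPKM in KO, 12.7 in control) crosses that of LEF1 (9.31 in KO, 13.5 in control), and the DKK1 line is the steepest.

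The other genes of the pathway were taken from 8 lists by role. Of 122 such genes, 100 were tested, 41 rose, 31 fell and 28 were not called, against 31.8% higher and 31.2% lower among all tested genes. Of the 100, 6 passed the filter on low counts without 2 control libraries at its level, and 1 without 2 KO libraries. The 6, WNT4, RSPO3, LGR6, DKK2, DKK3 and SOST, are all among the 41 that rose. Under the stricter filter 92 were tested, 36 rose and 30 fell. Changes of at least 2-fold were called for 11 genes that rose, LGR6, DKK2, DKK3 and SOST among them, and 2 that fell. Among all tested genes 8.38% rose and 1.11% fell that far. Without control sgRNA1 replicate 2, 40 rose and 32 fell. None of the called genes, the 10 included, changed sign with DESeq2 size factors or library totals in place of TMM. These scalings all relate a count to the rest of its library and differ little here. Whether total RNA per cell differed between arms was not tested.

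Of 19 Wnt ligand genes, 11 were tested, 4 rose and 4 fell, against 31.8% and 31.2% of all tested genes. The other 3 were not called, and the median log2 fold change was -0.18. With no filter 18 were tested and the median turned to 0.34, and without control sgRNA1 replicate 1, 2 of 13 fell and the median was -0.02. After thinning, 3 of 8 rose and 2 fell. WNT9A rose by 2.12 ± 0.160 on the log2 scale (adjusted p = 5.06e-10, edgeR), with 7.82 CPM in KO and 1.78 CPM in control cells. WNT16 also rose, to 8.32 CPM in KO, against 5.32 CPM in control cells. WNT10B fell to 5.48 CPM in KO, against 10.5 CPM in control cells, and WNT5A, a ligand known for β-catenin-independent signalling, fell to 44.6 CPM in KO, against 51.1 CPM in control cells. Of the secretion genes, WLS, which carries Wnts to the surface, fell by 0.27 ± 0.048 on the log2 scale, and PORCN, which acylates them, was not called (0.02 ± 0.147, adjusted p = 0.916, edgeR).

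All 16 receptors and co-receptors were tested, and 4 rose and 7 fell, against 31.8% and 31.2% of all tested genes. Another 5 were not called, and the median was -0.03. FZD8 had the largest change, with 93.3 to 97.7 CPM in KO and 20.2 to 25.2 CPM in control libraries and a log2 fold change of 2.01 ± 0.057 (adjusted p = 1.27e-16, edgeR). FZD9 rose by 1.09 ± 0.107 and FZD4 by 0.60 ± 0.070 on the same scale. LRP5, a co-receptor that DKK1 binds, fell by 0.55 ± 0.050 (adjusted p = 6.56e-09, edgeR). LRP6, which DKK1 also binds, averaged 105 CPM in KO and 111 CPM in control cells. It was not called (log2 fold change -0.08 ± 0.045, adjusted p = 0.134, edgeR). Of the FZD4 exonic bases, 18.9% overlap PRSS23 on the other strand.

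Among R-spondins and their other receptors, 5 of 6 genes were tested, with a median of 0.86. By the same edgeR test 4 rose and none fell, against 31.8% and 31.2% of all tested genes. That count depends on the filter and on single libraries: 2 of 3 rose under the stricter filter, with a median of 0.12, 1 of 2 rose after thinning, 2 of 6 with no filter and 2 of 5 without KO sgRNA1 replicate 1. RSPO2, an R-spondin ligand, had 506 counts in KO and 102 in control libraries and rose by 1.71 ± 0.154 on the log2 scale (adjusted p = 6.62e-09, edgeR). LGR4, the widely expressed relative of LGR5, stood at 197 ± 6.85 CPM in KO and 182 ± 1.95 CPM in control cells, a log2 change of 0.11 ± 0.040 that was called (adjusted p = 0.0181, edgeR). LGR6 and RSPO3 rose at very few counts. LGR6 had 50 in KO and 9 in control libraries, and RSPO3 had 63 in KO and 24 in control libraries. Both passed the low-count filter through KO libraries, so that a difference was favoured by the filter.

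Of 17 secreted and surface inhibitors, 12 were tested, 6 rose and 1 fell, against 31.8% and 31.2% of all tested genes. The remaining 5 were not called, and the median was 0.51, or 0.51 with SOST set at its bound. Under the stricter filter on low counts 9 were tested, 3 rose and 1 fell, and the median was 0.03, so that the level of the median rests on weakly expressed genes. The 1 that fell became 2 without KO sgRNA2 replicate 1 or without control sgRNA2 replicate 1. SFRP1, which binds Wnts outside the cell, rose by 0.93 ± 0.091 on the log2 scale (adjusted p = 2.14e-08, edgeR), with 20.3 CPM in KO and 10.5 CPM in control cells. KREMEN1, the partner of DKK1 in removing LRP6, fell by 0.65 ± 0.054 (adjusted p = 1.71e-09, edgeR), with 48.02 CPM in KO and 75.7 CPM in control cells. DKK2 had 61 counts in KO and 4 in control libraries, a CPM ratio of 10.1 with an exact 95% interval of 3.74 to 38.2. SOST had 43 counts in KO and 0 in control libraries, at least 9.48-fold higher against a floor of 3 counts over the group. DKK2, DKK3 and SOST passed the low-count filter through KO libraries, and like DKK1 they were close to silent in control cells.

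Of 19 cytoplasmic and destruction-complex genes, 18 were tested, 6 rose and 5 fell, against 31.8% and 31.2% of all tested genes. Another 7 were not called, and the median was 0.02. CTNNB1, which encodes β-catenin, was not called, with 494 ± 12.9 CPM in KO and 468 ± 23.3 CPM in control cells (log2 fold change 0.08 ± 0.045, adjusted p = 0.149, edgeR; named after its values were seen). AMER1, a membrane anchor for APC and AXIN, fell by 1.08 ± 0.100 on the log2 scale (adjusted p = 9.13e-09, edgeR), and DVL1, a Dishevelled, fell by 0.77 ± 0.047 (adjusted p = 1.55e-11, edgeR). GSK3B, the kinase that marks β-catenin for destruction, rose by 0.47 ± 0.046, and TNKS, the tankyrase that marks AXIN for destruction, rose by 0.51 ± 0.051. NKD2, the paralog of NKD1, had 0 counts in all 8 libraries.

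Of 15 other nuclear factors, all tested, 3 rose and 8 fell, against 31.8% and 31.2% of all tested genes. The remaining 4 were not called, and the median was -0.18. The Groucho-type corepressors moved in different directions: TLE1 rose by 0.94 ± 0.043 and TLE4 by 0.67 ± 0.048 on the log2 scale. TLE2 fell by 0.44 ± 0.166 (adjusted p = 0.0271, edgeR), TLE3 by 0.11 ± 0.043 (adjusted p = 0.0318, edgeR) and the short relative TLE5 by 0.86 ± 0.065. TLE1 had 144 to 148 CPM in KO and 75.2 to 77.6 CPM in control libraries, the smallest p of the list (adjusted p = 2.64e-13, edgeR). PYGO1, a β-catenin coactivator, fell by 0.78 ± 0.069 (adjusted p = 4.98e-09, edgeR).

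Of 28 other genes reported as Wnt targets in some cell type, 21 were tested and 2 were not called, with a median of 0.48. Of the 21, 14 rose and 5 fell, against 31.8% and 31.2% of all tested genes. EPHB3, a guidance receptor of intestinal crypts, rose by 2.34 ± 0.136 on the log2 scale (adjusted p = 9.22e-12, edgeR), with 12.6 CPM in KO and 2.58 CPM in control cells. CCN1, a matricellular protein, rose by 1.53 ± 0.094 (adjusted p = 2.09e-11, edgeR). CCND1, the D-type cyclin often used as a Wnt readout, fell by 0.87 ± 0.047 (adjusted p = 3.14e-12, edgeR), with 91.0 CPM in KO and 166 CPM in control cells. SOX12, a SoxC relative of SOX4, fell by 1.31 ± 0.073 (adjusted p = 5.26e-12, edgeR) to 18.5 CPM in KO, against 47.1 CPM in control cells, the opposite direction to SOX4. Many pathways reach these genes, and the list was gathered from several tissues.

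**Figure D5:**
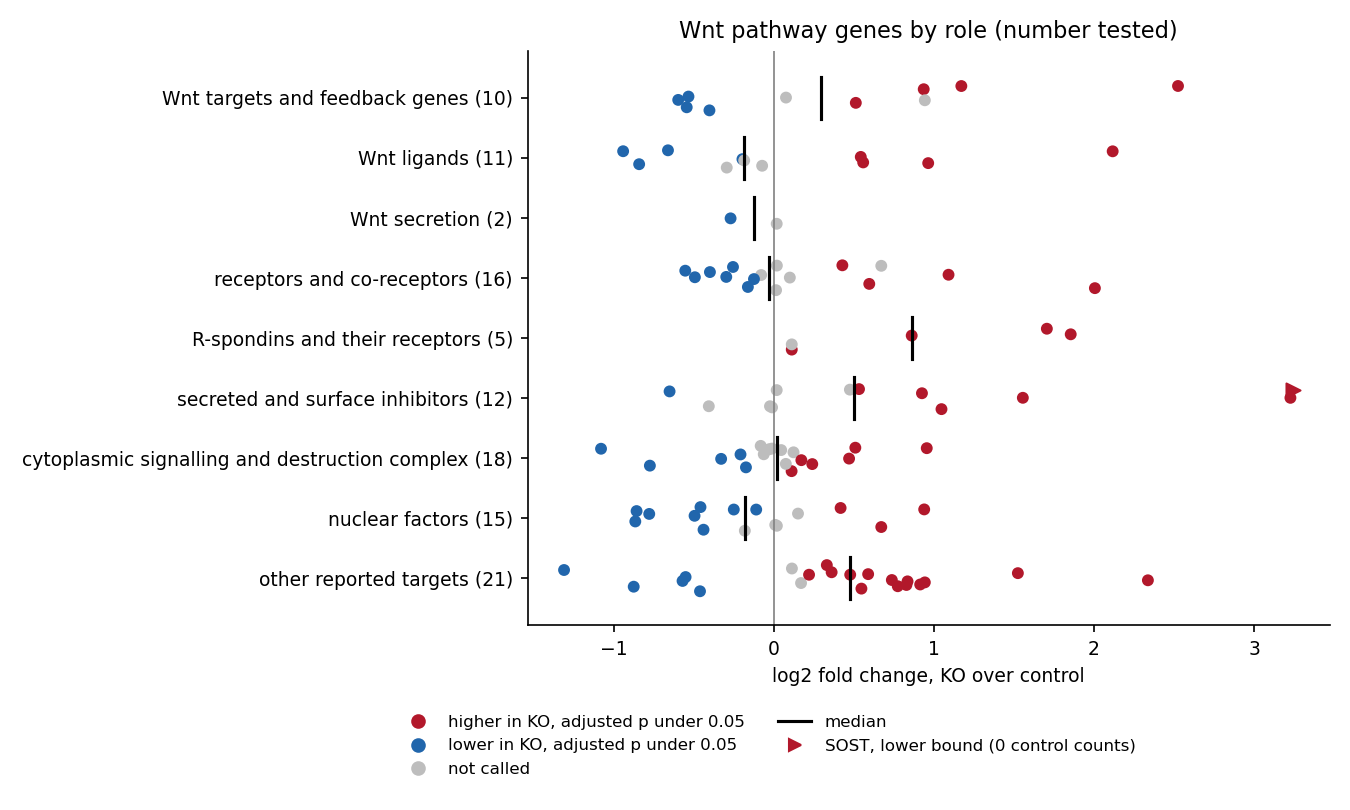
Log2 fold change of KO over control for every tested gene of each role list, in red where called higher, in blue where called lower and in grey where not called, with a black line at the list median. The 10 Wnt targets and feedback genes on the top row lie on both sides of 0, and SOST is drawn at its lower bound because the control libraries held 0 counts of it.

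Markers of other cell types were measured as a check of the cell line. Of 4 colon epithelium markers, 1 was tested, CDX2, which fell by 0.46 ± 0.100 on the log2 scale, and the list summed to 9.75 to 11.7 CPM in KO and 11.04 to 15.18 CPM in control libraries. Of 4 endothelial markers, 1 was tested and called, KDR, with 135 counts in KO and 7 in control libraries, and the list summed to 2.78 to 3.80 CPM in KO and 0 to 0.404 CPM in control libraries, with CDH5 at 0 in all controls. Of 5 leukocyte markers, 1 was tested and called, CD14, with 89 counts in KO and 26 in control libraries, and the list summed to 1.401 to 2.038 CPM in KO and 0.565 to 1.08 CPM in control libraries. KDR and CD14 both passed the low-count filter through KO libraries, so that a difference was favoured by the filter. Of 5 fibroblast markers, 3 were tested and none was called by edgeR, with sums of 19.0 to 23.8 CPM in KO and 14.69 to 25.03 CPM in control libraries. None of the 4 hepatocyte markers was tested, and the list summed to 0.234 to 0.594 CPM in KO and 0 to 0.0690 CPM in control libraries. ALB had 11 counts in KO and 0 in control libraries, with arms that did not overlap, APOA1 had 11 in KO and 1 in control libraries, and SERPINA1 had 0 in all 8. The part of these levels, of depth and of the number of detected genes in the changes of DKK1, SOST and other weakly expressed genes was not tested beyond the thinned values given above.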

How the data were processed

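RNA-seq libraries of HEK293 cells had been made with a stranded poly(A) kit and sequenced as 80 bp paired-end reads, per the labels' protocols. The authors deposited raw counts per gene, 1 table per library, with the gene length in bases beside them. Reads were counted with featureCounts on hg38, per the submitters' processing notes. Not given in the sources used here are the aligner, annotation and strand setting, so reads shared by overlapping genes may have been dropped or counted.

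Of 28395 entries, 459 without a gene ID (0.0284 to 0.0425% of counts) were left out, and 27744 of 27936 genes matched a RefSeq symbol on GRCh38.p14. Genes were filtered with filterByExpr, given the 4 groups, a minimum count of 10 and a minimum total of 15, which kept 14455. edgeR 4.0.16 (TMM, quasi-likelihood F test) was fitted to all 8 libraries with a guide term and 5 residual degrees of freedom. Contrasts within guides, between guides and between control cells came from a fit of 1 mean per group, with 4 residual degrees of freedom. Adjustment was by Benjamini-Hochberg across the 14455 genes. The biological coefficient of variation was 0.0473. The steps were also run on simulated data with few changed genes and the same spread for every gene. These data differ in both, so that run does not measure the error rate here. Exact permutation tests used log2(CPM + 0.5), and Poisson and ratio intervals are exact at 95% for counting error alone, because PCR copies cannot be told from separate molecules. A group at 0 counts was set to a floor of 3. Exon overlap was measured on GENCODE v29, which need not be the gene model behind the counts. KAT5 has 3732 exonic bases there and 2369 in the deposited gene lengths.

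The members, lists and tests were chosen with earlier results of these data known. Genes named were the 10 members, KAT5, up to 4 genes with the smallest p in each other list and the 3 nearest to LGR5. TCF7L1, TCF7L2, DKK3, CTNNB1, NKD2, SKP1, SUPT4H1 and LEF1-AS1 were named for their relation to a member, after values were seen. RNASEH2C, AC004687.2, TSPOAP1-AS1 and PRSS23 were named as overlapping neighbours, and WNT4 for how it passed the low-count filter. The marker lists were set with the other lists, and single markers were named from them after values were seen. TLE2, TLE3 and LRP6 were named beside a relative in their list, also after values were seen. Alternatives were DESeq2 size factors, library totals, no filter, a stricter filter, DESeq2 1.42.0, limma-voom (limma 3.58.1), no guide term, a replicate block, thinning to the smallest library and leaving out each library. Thinning was drawn at random once, and how far its values vary between draws was not tested.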

Additional observations from a re-analysis of the deposited data

How the results depend on the processing

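Of the 185 values of single genes in KO against control under the alternatives, KAT5 included, 182 kept their direction and their side of the threshold. The others were NKD1 after thinning (0.26) and AXIN2 without control sgRNA1 replicate 1 (-0.056) or control sgRNA2 replicate 2 (-0.003). SP5 has no value after thinning or under the stricter filter, which removed it. Without each library in turn, AXIN2 ranged from -0.056 to 0.173 for KO against control, from -0.392 to 0.373 within sgRNA1 and from -0.128 to 0.232 within sgRNA2, and SP5 within sgRNA1 from -0.309 to 0.413. After thinning, AXIN2 within sgRNA1 was -0.077. Thinning to 3723992 counts called 3246 genes higher and 3264 lower, and within sgRNA2 2262 higher and 2230 lower, with 2 of the 10 genes higher. Within sgRNA2, 3 to 5 of the 10 were called higher without each library.

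Calls between guides and between control cells were few and unstable. The difference between guides called 11 genes with no filter and 0 to 36 without each library, 36 being without control sgRNA1 replicate 1, 23 without control sgRNA1 replicate 2 and 3 without KO sgRNA2 replicate 1. In control sgRNA2 over control sgRNA1, genes called higher numbered 29 with no filter, 0 with DESeq2 size factors, library totals, the stricter filter, DESeq2 or thinning, and 0 to 63 without each library. Those called lower numbered 57 with no filter and 2 to 74 without each library. None of the 10 was called in either contrast under the 14 alternatives run for it (12 for SP5), which did not include limma-voom, the fit with no guide term or the replicate block, and of their values, KAT5 included, 11 of 88 between guides and 9 of 88 between control cells changed sign without a library, as did 4 of 64 in each contrast under the other alternatives. The cause was not tested. DESeq2 size factors and library totals put the median of all genes at 0.011 and 0.041, against 0.007 with TMM.

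Same-numbered libraries of KO and control showed little joint deviation (correlation of deviations 0.0151 for sgRNA1 and 0.0276 for sgRNA2 over 14455 genes). With 2 libraries per group, each guide number gives a single such comparison. It cannot tell whether libraries shared a culture or day. Replicate numbers are taken as names only because the labels do not say what they mark. A fit with the replicate block called 4528 genes higher and 4453 lower, again 4 and 4 of the 10, with SP5 at 0.98 (adjusted p = 0.0937, edgeR). Of 122 other pathway genes, 40 rose and 32 fell without control sgRNA1 replicate 2, an alternative added after seeing the data. Depth limits SP5 and DKK1 in control cells most, with 13 and 20 counts in all.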
